A study of Mus musculus with 4 samples.

Results

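Cerebellar granule neurons were searched for among nuclei of mouse brain profiled by single-nucleus RNA sequencing. They were chosen by a rule on counts of unique molecular identifiers (UMIs, each standing for 1 captured RNA molecule) in the 2 libraries labelled as striatal cells. A nucleus was a member when the UMIs of Gabra6, Cbln3 and Fat2 summed to at least 3, with at least 1 of Gabra6, and when those of Mog, Mag, Aqp4, Csf1r and Cldn5 summed to at most 1. The rule found 77 of the 78728 nuclei of the series, 43 of 23724 in the striatum AAV-CTRL library and 34 of 17466 in the striatum AAV-VEGF-C library.

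Per the labels and the study's methods, the mice were C57BL/6J males aged 8 weeks at collection, and an adeno-associated virus had been injected into the cisterna magna, the fluid space beneath the cerebellum, 4 weeks earlier. AAV-VEGF-C encoded mouse vascular endothelial growth factor C, and AAV-CTRL encoded a soluble part of VEGF receptor 3 that does not bind VEGF-C, so both groups carried a virus and no group was left uninjected. Tissue of 5 mice was pooled for each library, and the series holds 1 striatal and 1 cortical library per virus. No comparison therefore has a replicate, nuclei of 1 library share their source, and every interval below is an exact 95% interval that covers counting error only.

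Granule neurons are the small, densely packed excitatory neurons of the cerebellar cortex and the most abundant neurons of the brain. They receive mossy fibre input, are inhibited by Golgi cells through GABA-A receptors that hold the alpha6 subunit encoded by Gabra6, and send parallel fibres to Purkinje cells. At these parallel fibre synapses cerebellin-1, which can assemble with cerebellin-3, bridges presynaptic neurexin and the postsynaptic receptor GluD2. Fat2 encodes a protocadherin of parallel fibres. In the adult brain the set of these genes is characteristic of cerebellum, a region that neither the striatal nor the cortical label names.

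The genes of the rule are described here without any comparison, since they chose the members. Gabra6 had 76 UMIs in the 43 members of striatum AAV-CTRL and 69 in the 34 members of striatum AAV-VEGF-C, or 605 and 690.4 counts per 1000000 UMIs (CPM). Cbln3, the cerebellin made by granule neurons, had 342 and 320.2 CPM. Fat2 had 525 and 370.2 CPM. All 3 genes were seen in 23 of 43 and 15 of 34 members, and in 1 and 2 members Gabra6 was the only gene of the rule seen. In the annotation of the mm10 build, Gabra6 lies on the minus strand at chr11:42306437-42321072, Cbln3 on the minus strand at chr14:55878913-55884392 and Fat2 on the minus strand at chr11:55250609-55336564.

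Members made up 0.181% (0.131 to 0.244) of striatum AAV-CTRL nuclei and 0.195% (0.135 to 0.272) of striatum AAV-VEGF-C nuclei. The log2 ratio of these shares, AAV-VEGF-C over AAV-CTRL, was 0.10 (−0.59 to 0.79), so the intervals leave room for a share ratio in either direction. The same rule found 0 of 17168 cortex AAV-CTRL nuclei and 0 of 20370 cortex AAV-VEGF-C nuclei, counts of 0 for which 3 nuclei would make 0.0175% and 0.0147% and the exact upper limits are 0.0215% and 0.0181%. Without the conditions on Gabra6 and on the glial and vascular genes, 63 and 54 striatal nuclei and 2 and 3 cortical nuclei reached the sum of 3. The members were thus found in the striatal libraries of both viruses at a share that the cortical libraries did not reach.

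The edge of the rule was soft. Exactly 3 UMIs of the rule genes were found in 17 members of each striatal library. Just outside it, 25 and 16 nuclei had a sum of 2 and met the other conditions. A further 10 and 8 nuclei reached the sum without Gabra6, and 10 and 12 were left out by the glial and vascular genes alone.

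Whether the rest of the transcriptome also sets these nuclei apart was asked by grouping all striatal nuclei without the 8 genes of the rule. Of the 50 resulting clusters, a single one of 275 nuclei held 62 of the 77 members, 33 of 43 (76.7%) in AAV-CTRL and 29 of 34 (85.3%) in AAV-VEGF-C. This cluster was picked because it held most members, so its high level of the rule genes follows from that choice. Its other genes of highest fold over all other nuclei were Gm42912 (130 against 0.394 CPM), Crtam, Il16, Cnpy1 and Exph5, which describe the cluster and are no test of it, since the grouping used them. It is called the Gabra6 cluster below and held 148 AAV-CTRL nuclei (0.624%) and 127 AAV-VEGF-C nuclei (0.727%), with a log2 ratio of shares of 0.22 (−0.13 to 0.57).

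The other 15 members, 10 in AAV-CTRL and 5 in AAV-VEGF-C, lay outside the Gabra6 cluster and differed from the 62 inside it. Their median depth was 5622 and 5480 UMIs, against 1845 and 2275 for members inside, so they carried 44.5% and 32.6% of all members' UMIs. At least 2 UMIs of the GABA-synthesis genes Gad1 and Gad2 were counted in 5 of 10 and 2 of 5 of them, and in 7 of 33 and 3 of 29 members inside. A doublet caller marked 2 and 1 of all members as 2 nuclei in 1 droplet. Since these few deep nuclei weigh heavily in summed counts, results below are also given for the 62 members inside the cluster or for all its nuclei where the values move. Mixed droplets were not separated further, and their part in these values was not tested.

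**Figure D1:**
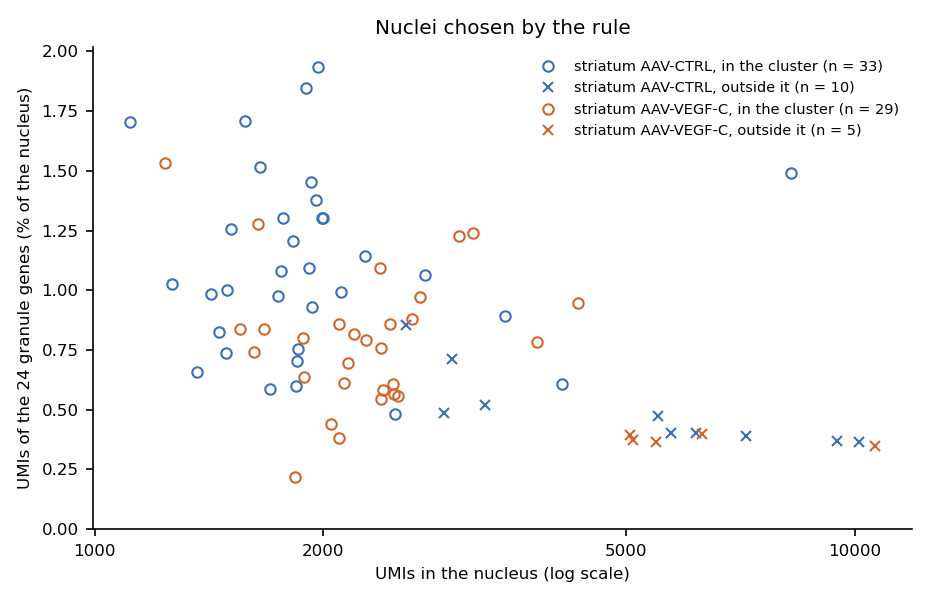
Each point is 1 member nucleus, with its total UMIs on a log scale on the horizontal axis and the percentage of these UMIs that came from 24 granule neuron genes outside the rule on the vertical axis. Circles are members inside the Gabra6 cluster (33 and 29) and crosses members outside it (10 and 5), coloured by library. Crosses gather at 2570 UMIs and above and at percentages lower than those of most circles.

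Members were not deep nuclei as a whole. Their depth ran from 1115 to 10124 UMIs with a median of 1934 in AAV-CTRL, and from 1239 to 10631 with a median of 2381 in AAV-VEGF-C. All other nuclei had medians of 2274 and 2649 UMIs. Neurons of the same libraries with at least 2 UMIs of Slc17a6, the vesicular glutamate transporter of thalamus, midbrain and hindbrain, had medians of 5367 and 6548.5 UMIs under the same limit on glial and vascular genes. Members held a median of 1321 and 1581 detected genes. With every nucleus thinned to 700 UMIs the median was 564 and 575.5 genes, beside 561 and 562 in other nuclei, so genes per UMI were close to those of the libraries at large. Mitochondrial transcripts took 0.790% and 1.06% of members' UMIs and 0.909% and 1.12% of those of other nuclei. The 2 striatal libraries shared 115 cell barcodes, none of them between members.

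Granule neuron genes outside the rule were then read to describe the members. Their list was written with earlier results of these data known, so it is no independent check of the label. The list held 24 genes known from granule neurons, among them transcription factors, synaptic genes and signalling genes, and their UMIs were summed. The sum reached 1027 UMIs, or 8176 CPM (7684 to 8692), in AAV-CTRL members and 661 UMIs, or 6613 CPM (6119 to 7137), in AAV-VEGF-C members. All other nuclei had 1882 and 1797 CPM, Slc17a6 neurons 2048 and 1924 CPM, and neurons with at least 3 UMIs of Gad1 and Gad2 had 1978 and 1914 CPM. Cortical neurons with at least 2 UMIs of Slc17a7, the other vesicular glutamate transporter and one that granule neurons also use, had 2801 and 2813 CPM. Members thus stood above each of these classes in both libraries, by a log2 ratio of 2.05 and 1.79 over Gad neurons and of 1.55 and 1.23 over cortical Slc17a7 neurons.

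The level of these 24 genes was also read by the count of the 3 rule genes. Nuclei with none of the rule genes had 1857 and 1776 CPM, and those with 1 UMI had 2618 and 2554 CPM. At a sum of 2, with the other conditions met, the level was 6627 and 9399 CPM. Members with a sum of 3 had 7774 and 6629 CPM, and those with 4 or more 8379 and 6602 CPM. From a sum of 2 on, the levels thus went up in AAV-CTRL and down in AAV-VEGF-C. Nuclei of the Gabra6 cluster that missed the rule, 115 and 98 in number, had 9856 and 8530 CPM. In members inside the cluster the level was 11175 and 8015 CPM, against 4436 and 3714 CPM in the 15 outside. The 15 nuclei outside therefore lay between the other neurons and the cluster. The grouping could use the 24 genes, so their levels inside and outside the cluster are a description.

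**Figure D2:**
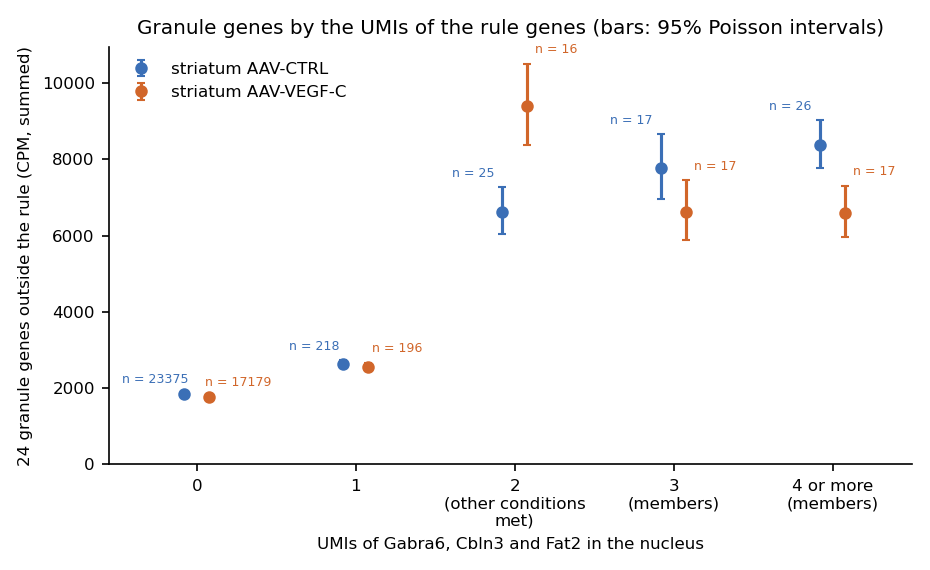
Summed level of the 24 granule neuron genes outside the rule (CPM, vertical axis) in striatal nuclei grouped by their UMIs of Gabra6, Cbln3 and Fat2 (horizontal axis), with 95% Poisson intervals and the number of nuclei beside each point. Levels stay at or below 2618 CPM up to 1 UMI and lie between 6602 and 9399 CPM from 2 UMIs on.

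Gene by gene, each gene's level in members was set over that in all other nuclei of the same library, and a gene was counted when it differed by 2-fold or more the same way in both libraries. Only genes with at least 30 UMIs over the members and over the others of both libraries entered, 1610 in all. Of these, 102 (6.34%) were higher and 31 (1.93%) lower in members. Of the 24 granule neuron genes, 16 reached the minimum, 13 of these were higher and 0 lower. A gene can reach this minimum because members express it strongly, so the list was also read without it. Over all 27030 genes with a UMI, 262 (0.969%) had an interval of the ratio above 0 in both libraries and 253 (0.936%) below it. All 24 granule neuron genes had a UMI in members, 16 had intervals above 0 in both libraries and 0 below. For members inside the cluster, 12 of the 14 that reached the minimum were higher, where 14.1% of 821 genes were. Over all nuclei of the cluster 17 of 21 were higher, where 6.35% of 3984 genes were.

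Against Slc17a6 neurons, another excitatory class of the same libraries, 121 (7.52%) of 1608 genes were higher and 60 (3.73%) lower in members. Without the minimum, 411 (1.7%) of 24176 genes had intervals above 0 in both libraries and 340 (1.41%) below. The granule list again gave 13 of 16 higher and 0 lower, and the same 16 of 24 genes had intervals above 0. Its median log2 ratio was 2.26 and 1.73, beside 0.22 and 0.25 for all genes in the comparison.

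Among transcription factors, Neurod1, a factor of granule neuron differentiation, had only 6 and 4 UMIs in members, yet these made 47.8 and 40.0 CPM against 3.75 and 3.97 CPM in other nuclei. Pax6, which marks granule neurons from their precursors on, had 6 and 10 UMIs, with log2 ratios of 1.57 (0.13 to 2.70) and 2.94 (1.87 to 3.82). Zic1, a zinc finger factor of the same lineage, had 51 and 29 UMIs and log2 ratios of 2.01 (1.59 to 2.41) and 1.39 (0.81 to 1.91). Etv1, an ETS factor of maturing granule neurons, had 37 and 34 UMIs, with 2.13 and 2.37. Meis1 had 23 and 17 UMIs, with 1.54 and 1.74. These factors lay above other nuclei in both libraries.

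In a wider list of 23 transcription factors of hindbrain and granule lineage, 7 genes reached the minimum. Of these, 3 (Zic1, Etv1 and Meis1) were higher than in other nuclei and 6 higher than in Slc17a6 neurons, with 0 lower in each comparison. Over all genes 6.34% and 7.52% were higher in the same comparisons. The 3 added against Slc17a6 neurons were the nuclear factor I genes Nfia (1.75 and 2.08), Nfib (2.23 and 2.23) and Nfix (2.44 and 2.24), which are expressed widely in neurons and glia. Without the minimum, 8 and 11 of the 23 had intervals above 0 in both libraries. En2, an engrailed gene of midbrain and cerebellum, had 5 and 1 UMIs. Atoh1, the factor of granule precursors, had 0 UMIs, and so had all 22 Hox genes, which mark hindbrain behind the cerebellum. At this depth 0 UMIs limits a level only to about 3 UMIs over the members of a library.

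Transmitter genes of both excitatory and inhibitory neurons were found in members. Of 11 such genes 4 reached the minimum, and 1 of these, Slc17a7, was higher than in other nuclei, beside 6.34% of all 1610 genes. Slc17a7 had 26 and 17 UMIs, seen in 16 and 14 members, at 207 and 170.1 CPM against 56.6 and 40.8 CPM in other nuclei. Inside the cluster the log2 ratio was 2.54 in both libraries. Slc17a6 had 17 and 13 UMIs, or 135 and 130.1 CPM, near the 144 and 172 CPM of other nuclei. Gad2, a GABA-synthesis gene that granule neurons should lack, had 32 and 21 UMIs, or 255 and 210.1 CPM, near its level of 197 and 196 CPM in other nuclei and above the 88.8 and 82.7 CPM of Slc17a6 neurons. Inside the cluster Gad2 still had 16 and 14 UMIs, with intervals over other nuclei that included 0. Whether these Gad2 UMIs came from members or from free RNA was not tested.

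Synaptic and secretory genes held several of the clearest differences. Cbln1, the cerebellin of parallel fibre synapses, had 24 and 17 UMIs, at 191 and 170.1 CPM against 19.3 and 24.1 CPM in other nuclei, or log2 ratios of 3.30 and 2.82. Of 8 genes for cerebellins and their partners 6 reached the minimum, and of these Cbln1 was the only one higher by 2-fold in both libraries. Reln, which encodes the secreted protein reelin, had 49 and 42 UMIs, at 390.1 and 420.2 CPM against 70.5 and 58.2 CPM. Cadps2, a factor of dense core vesicle release, had 97 and 73 UMIs, at 772 and 730.4 CPM against 121 and 111 CPM, and was seen in 39 of 43 and 29 of 34 members. Its log2 ratio over Slc17a6 neurons was 2.93 (2.62 to 3.23) and 3.12 (2.76 to 3.46). Unc13c, the Munc13 isoform of cerebellum that primes vesicles, had 72 and 59 UMIs, with 1.44 and 1.57 over other nuclei and 1.04 and 1.26 over Slc17a6 neurons.

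Of 21 genes of vesicle release, 16 reached the minimum. Against other nuclei 4 were higher, Cadps2, Unc13c, the active zone scaffold Rims1 (1.25 and 1.55) and the vesicle protein Sv2b (1.47 and 1.28), and 0 were lower. Against Slc17a6 neurons only Cadps2 and Unc13c were higher. Over all genes 6.34% and 7.52% were higher in the same comparisons. None of the 16 was lower by 2-fold in both libraries.

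Further genes of the granule neuron list also stood above other nuclei. Il16, whose neuronal form is known from granule neurons, had 21 and 20 UMIs, at 167 and 200.1 CPM against 4.93 and 4.57 CPM in other nuclei. Its log2 ratios of 5.08 (4.38 to 5.72) and 5.45 (4.72 to 6.11) made it the first of the 1610 genes by the smaller of the 2 libraries, the genes of the rule left out. Chn2, which encodes the Rac regulator beta2-chimaerin, had 139 and 77 UMIs, at 1107 and 770.4 CPM against 106 and 108 CPM. Camk4, the calcium- and calmodulin-dependent kinase IV of granule neurons, had 141 and 76 UMIs, at 1123 and 760.4 CPM against 155 and 145 CPM. Rbfox3, which encodes the neuronal antigen NeuN, had 151 and 89 UMIs, with log2 ratios of 2.12 and 1.74.

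Outside the lists, the genes that came next to Il16 by the same ordering were Exph5 (23 and 13 UMIs, log2 5.14 and 4.55), Gm2694 (26 and 16 UMIs, 4.07 and 3.55) and Tmem178 (38 and 27 UMIs, 3.41 and 3.62). Tll1, Tmem266, Caln1, Trhde, Ror1 and Sphkap followed among the first 20. Hcrt, the hypothalamic peptide hypocretin, also came among them with 24 and 42 UMIs, but 23 of the 24 came from 1 nucleus and 38 of the 42 from another. The other genes named here were spread over 10 or more members in each library. The lowest genes were Mast4 (24 and 19 UMIs, −1.63 in both libraries), Pex5l, Plcl1, Npas3, Epha6, Egfem1, Edil3, Cntnap5a, Ttr and Frmd4a.

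Not all genes known from granule neurons stood out. Gabrd, which encodes the delta subunit of tonic GABA-A receptors, had 11 and 5 UMIs and log2 ratios of 1.58 (0.58 to 2.42) and 0.63 (−0.99 to 1.86). Kcnk9, a leak potassium channel, had 4 and 7 UMIs, with −0.50 and 0.55. Fstl5 had 66 and 15 UMIs, at 525 CPM against 229.7 CPM of other nuclei in AAV-CTRL and 150.1 against 181 CPM in AAV-VEGF-C. The intervals of Tiam1 and Cntn2 included 0 in both libraries. Over all nuclei of the Gabra6 cluster Gabrd had 41 and 27 UMIs and log2 ratios of 2.51 and 1.69, and Kcnk9 0.77 and 0.89.

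**Figure D3:**
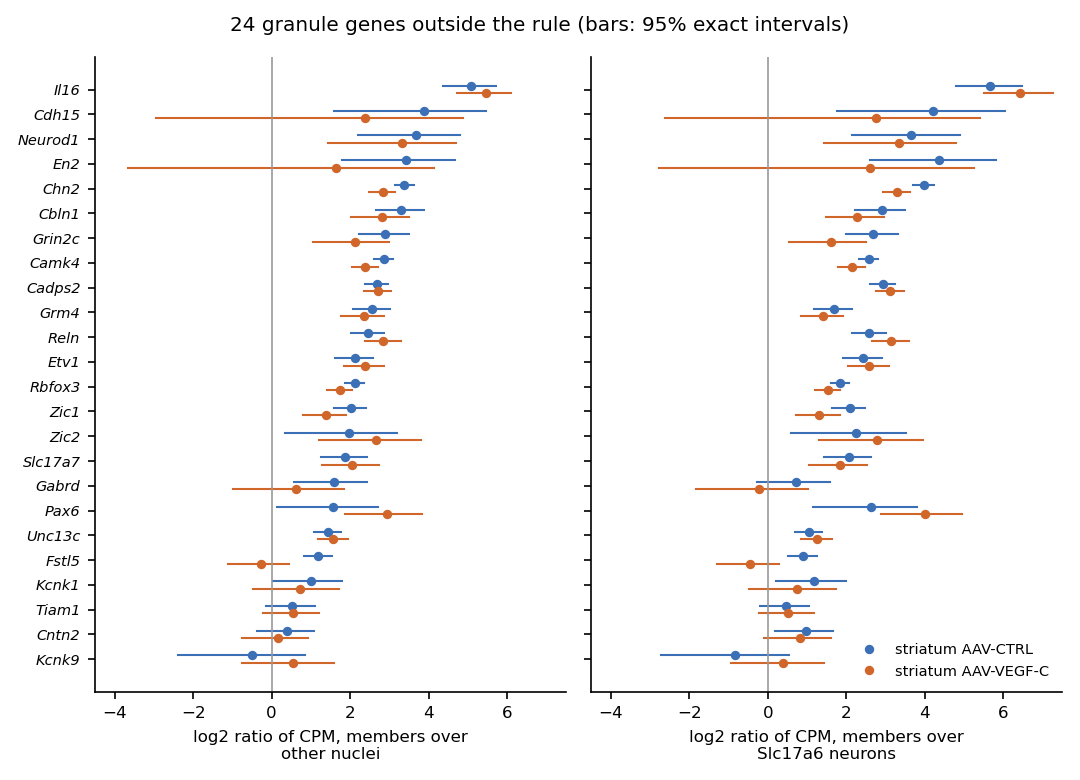
Log2 ratio of CPM in members over all other nuclei (left) and over Slc17a6 neurons (right) of the same library for each of the 24 granule neuron genes outside the rule, with 95% intervals. Il16 lies highest at 5.08 and 5.45 on the left, and the points of Kcnk9, at the bottom, lie on both sides of 0.

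Receptors and channels were compared with those of Slc17a6 neurons, since both are excitatory. Of 24 glutamate receptor genes, 17 reached the minimum, 2 (11.8%) were higher and 3 (17.6%) lower. Over all 1608 genes 7.52% were higher and 3.73% lower, so the count of higher genes lay near that share. Grin2c, the NMDA receptor subunit that mature granule neurons take up, had 22 and 10 UMIs and log2 ratios of 2.70 (2.00 to 3.32) and 1.61 (0.54 to 2.50). Grm4, the presynaptic metabotropic receptor of parallel fibres, had 39 and 30 UMIs, with 1.68 (1.18 to 2.14) and 1.41 (0.84 to 1.93). The 3 lower genes were the forebrain-rich NMDA subunit gene Grin2b (46 and 28 UMIs, −1.69 and −2.20) and the metabotropic receptor genes Grm7 (91 and 49 UMIs, −1.49 and −2.03) and Grm8 (−1.09 and −1.12).

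These lower levels were further from 0 inside the cluster. Grm7 had 17 and 12 UMIs in the members inside, with log2 ratios over Slc17a6 neurons of −3.06 (−3.84 to −2.39) and −3.49 (−4.45 to −2.69). These counts lie under the minimum of 30 UMIs. Over all nuclei of the cluster, 7 of 18 glutamate receptor genes were lower and 2 higher, where 4.78% of 3979 genes were lower and 13.3% higher. The grouping that made the cluster used these genes, so its values are a description. There the metabotropic receptor gene Grm5 was at −2.58 and −2.87, Grid1 at −2.80 and −2.85 and the AMPA subunit gene Gria1 at −1.93 and −2.04. In the summed members the deep nuclei outside the cluster therefore held much of the UMIs of these genes. Of 12 GABA-A receptor genes other than Gabra6, 7 reached the minimum and 0 differed by 2-fold in both libraries, higher or lower. Without the minimum, the intervals of 3 of the 12, Gabra4, Gabrb1 and Gabrg3, lay below 0 in both libraries against Slc17a6 neurons and 0 above. Over all nuclei of the cluster 3 of 8 were lower by 2-fold and 0 higher, and Gabrb1 was at 302 and 146 CPM there against 1037 and 1021 CPM in Slc17a6 neurons. Gabrb2 (40 and 37 UMIs), a subunit gene of common synaptic receptors, had intervals over Slc17a6 neurons that included 0 in both libraries.

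Among 29 ion channel genes and their partners, 19 reached the minimum. Of these, 2 (10.5%) were higher and 1 (5.26%) lower than in Slc17a6 neurons. Over all 1608 genes 7.52% were higher and 3.73% lower, so channel genes as a list lay near those shares. Kcnd2, the A-type potassium channel Kv4.2, was the most abundant difference, with UMIs in all 43 and all 34 members. It had 890 and 538 UMIs, at 7085 and 5383 CPM against 1810.4 and 1718 CPM in other nuclei and 2487 and 2515 CPM in Slc17a6 neurons. The log2 ratio over Slc17a6 neurons was 1.51 (1.41 to 1.61) and 1.10 (0.97 to 1.22). Kcnc1, the fast delayed rectifier Kv3.1, had 70 and 51 UMIs, with 1.28 and 1.07, though over all nuclei of the cluster it was at 1.38 and 0.71. Kcnma1, the large-conductance calcium-activated channel, was lower, with 66 and 33 UMIs and −1.46 and −2.13. Against all other nuclei 4 channel genes were higher and 0 lower, where 6.34% of all 1610 genes were higher and 1.93% lower. Among the 4 were Kcnd2, Kcnc1 and Fgf14 (1.33 and 1.48), the last a partner of sodium channels.

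Genes of other neurons did not all lie on 1 side of the libraries. Against Slc17a6 neurons, 3 of 9 thalamic genes reached the minimum and all 3 were lower, the axon guidance gene Ntng1 (20 and 40 UMIs, −3.42 and −2.36), the Wnt pathway factor Tcf7l2 (24 and 12 UMIs, −1.37 and −2.21) and Slc17a6, which defined that class. Drd1, the dopamine receptor of striatal projection neurons, had 0 UMIs in both libraries. Yet the list of striatal projection neuron genes summed to 1521 and 2912 CPM in members, against 914 and 929 CPM in other nuclei. Pde10a, a phosphodiesterase abundant in striatum, gave 169 and 217 of these UMIs, and Penk, an opioid peptide gene, 2 and 31, of which 29 came from 1 nucleus. Over all nuclei of the cluster Pde10a had 330 and 562 UMIs. Lists of other cerebellar neurons differed in direction, with Purkinje neuron genes at 287 and 580.3 CPM against 377 and 359 CPM in other nuclei and molecular layer interneuron genes at 629 and 390.2 CPM against 1097 and 1056 CPM. Genes of unipolar brush neurons, a further excitatory class of cerebellum, were at 1417 and 1521 CPM against 924 and 950.5 CPM. Slc17a6 neurons had 1603 and 1681 CPM of these genes, and the log2 ratios of members over them, −0.18 and −0.14, had intervals that included 0. Prox1, a factor of dentate granule neurons of hippocampus, had 8 and 9 UMIs, with intervals over other nuclei that included 0.

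Glial genes were counted over their whole lists. The 10 oligodendrocyte genes, of which Mog and Mag are limited by the rule, all had UMIs in members and summed to 1720 and 2391 CPM, against 3881 and 4232 CPM in other nuclei but only 927 and 909 CPM in Slc17a6 neurons. The 10 astrocyte genes, 9 of them with UMIs, summed to 1274 and 770.4 CPM, against 1542 and 1279 CPM in other nuclei. The 10 microglia genes had only 39 and 16 UMIs and differed in direction between the libraries. They were at 310 and 160 CPM, against 244 and 310 CPM in other nuclei and 114 and 137 CPM in Slc17a6 neurons. The part of free RNA in these values was not tested.

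The vector's own pathway was hardly seen in these nuclei. The 10 genes for VEGF ligands and receptors gave 22 and 23 UMIs, or 175 and 230.1 CPM, against 502 and 465 CPM in other nuclei. Slc17a6 neurons were at 273 and 244 CPM. The log2 ratio of members over them was −0.64 (−1.32 to −0.04) in AAV-CTRL and −0.09 (−0.75 to 0.50) in AAV-VEGF-C. A low level was thus not particular to members. Kdr and Flt4, the receptors of VEGF-C, had 0 UMIs in members of both libraries, and 3 of the 10 genes were at 0 in all. The coreceptor genes Nrp1 (8 and 4 UMIs) and Nrp2 (10 and 9 UMIs) gave most of the sum. Vegfc itself had 0 UMIs in AAV-CTRL members and 1 in AAV-VEGF-C members. Whether the transgene is counted under this gene is not given in the sources used here.

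AAV-VEGF-C was set over AAV-CTRL within members, the comparison the study was designed for, with 1 library on each side. Of 1610 genes with at least 30 UMIs over both libraries, 67 (4.16%) were 2-fold or more higher and 86 (5.34%) lower in AAV-VEGF-C members, and the median log2 ratio was 0.01. Single nuclei carried several of them. Over 50% of all UMIs came from 1 nucleus for 8 of the 67 and 4 of the 86. Over all 275 nuclei of the Gabra6 cluster, 97 (2.43%) of 3984 genes were higher and 81 (2.03%) lower, and 1 and 2 of these rested on 1 nucleus in this way. Viruses cannot be told apart from libraries, pools of mice or dissections here.

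The granule neuron genes themselves were counted in the same way. Of the 16 that reached the minimum, 0 were higher and 1 was lower, Fstl5 (66 and 15 UMIs, −1.81, −2.72 to −0.98). Over all nuclei of the cluster 0 of 21 were higher and 0 lower, and Fstl5 had 78 and 50 UMIs, at 314 and 191 CPM. The sum of the 24 granule neuron genes was lower in AAV-VEGF-C members, with a log2 ratio of −0.31 (−0.45 to −0.16). It was also lower over all nuclei of the cluster, with 2539 and 2193 UMIs and −0.28 (−0.37 to −0.20). In other nuclei it was −0.07. A lower sum was not particular to this list. The 12 pan-neuronal genes were at −0.43 (−0.51 to −0.36) in members, −0.29 (−0.34 to −0.24) over the cluster and −0.04 in other nuclei. Other lists went differently, with vesicle release genes at 0.01 in members and −0.03 over the cluster, and oligodendrocyte genes at 0.48 and 0.31. The rule genes, which chose the members, summed to 185 and 138 UMIs, or −0.09 (−0.42 to 0.23). Of the 24 glutamate receptor genes 0 of 17 were higher and 1 lower, and of the 29 channel genes 1 of 19 was higher and 2 lower. Over all 1610 genes 4.16% were higher and 5.34% lower, so counts in lists this short do not set them apart from other genes.

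The genes furthest apart in members included several that rested on 1 nucleus. Ranbp3l went from 2 to 33 UMIs, 32 of them in 1 nucleus, Penk from 2 to 31, 29 of them in 1 nucleus, and Ptgds from 37 to 331, 291 of them in 1 nucleus. Adarb2 went from 71 to 5 UMIs, and 45 of the 71 were in 1 nucleus. Over the cluster, Ranbp3l (0.93) and Penk (0.12) had intervals that included 0, and Adarb2 was at 0.54. These nuclei lay outside the cluster, where none of its nuclei had over 5 UMIs of Ptgds.

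Galntl6, a member of the polypeptide GalNAc-transferase family, differed the same way in each set of nuclei. These sets overlap, and the gene was named for its difference in them, so they are not separate support. Galntl6 had 39 UMIs in 12 of 43 AAV-CTRL members and 153 in 24 of 34 AAV-VEGF-C members, with a log2 ratio of 2.30 (1.79 to 2.85). In members inside the cluster it had 7 UMIs in 5 of 33 and 86 in 19 of 29, with 3.67 (2.56 to 5.03). Over all nuclei of the cluster it had 59 UMIs in 31 of 148 and 290 in 77 of 127, with 2.22 (1.82 to 2.65). All other nuclei had 1067 and 933 CPM and a ratio of −0.19 (−0.21 to −0.18). The AAV-VEGF-C nuclei of the cluster thus lay near the level of the library at large, and the AAV-CTRL nuclei, at 238 CPM, below it.

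Other genes of the cluster differed in many nuclei. Slc9a9, an endosomal sodium-proton exchanger, had 8 UMIs in 8 nuclei and 59 in 40, with 2.81 (1.74 to 4.09), against −0.21 in other nuclei. Ntrk3, the receptor of neurotrophin-3, had 136 and 301 UMIs, with 1.07 (0.78 to 1.38), and 74 and 115 UMIs in members, with 0.97 (0.53 to 1.41). Cntnap4, a neurexin-like adhesion gene, was lower, with 129 UMIs in 67 nuclei and 44 in 27, at −1.62 (−2.15 to −1.12). Maf had 30 and 6 UMIs, 6530403H02Rik 61 and 15, and Sema5a, an axon guidance gene, 49 and 16.

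**Figure D4:**
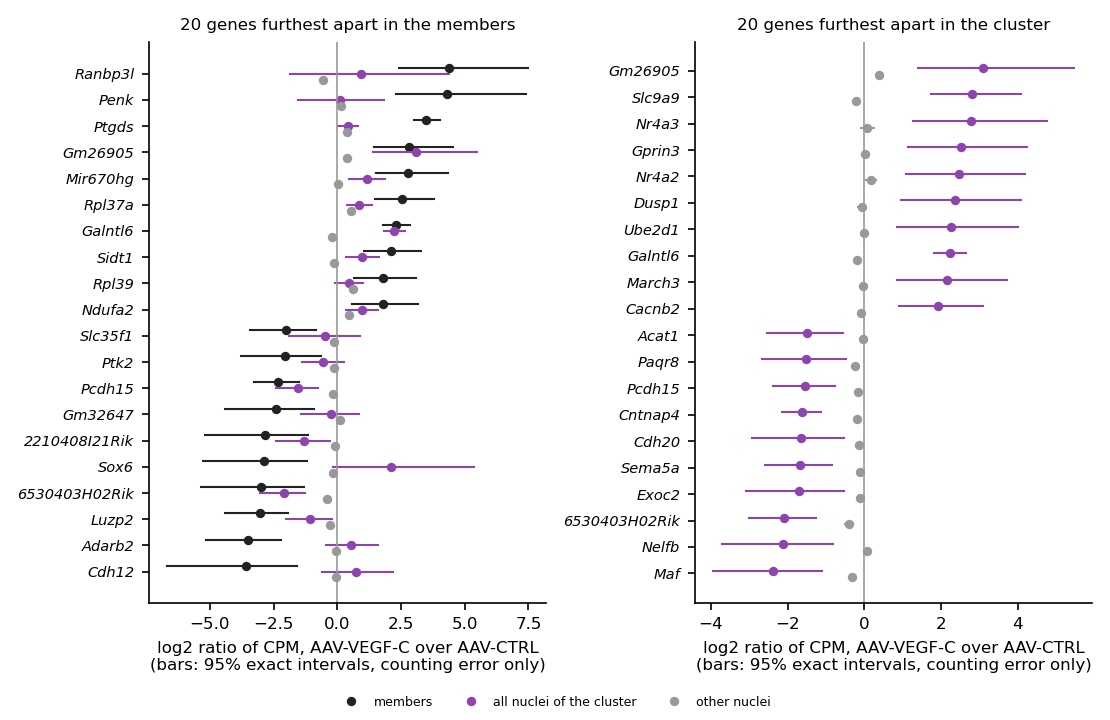
Log2 ratio of CPM, AAV-VEGF-C over AAV-CTRL, for the 20 genes furthest apart in members (left) and in all nuclei of the Gabra6 cluster (right), with 95% intervals that cover counting error only; grey points are all other nuclei. On the left Galntl6 lies at 2.30 in members and 2.22 in the cluster, while for Sox6, Adarb2 and Cdh12 the cluster lies on the other side of 0 from members.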

How the data were processed

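Single nuclei were isolated from frozen, pulverised tissue of 5 pooled mice per library and sequenced on the 10x platform. The authors deposited matrices of UMI counts per gene and nucleus, in unit counts with no normalization. The submitters' processing notes name Cell Ranger 5.1.1 and the build mm10, whereas the file headers name Cell Ranger 5.0.1. Annotation and the counting of introns are not given in the sources used here. Nuclei were used as deposited, from 1115 UMIs upward among members, and no nucleus was removed.

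Libraries held 63165470 to 78332657 UMIs in 17168 to 23724 nuclei. UMIs were summed over nuclei and scaled to 1000000. Levels have exact Poisson, shares exact Clopper-Pearson and ratios exact conditional binomial 95% intervals, for counting error only. With 1 library per group no test was made, and a difference was counted from 2-fold on at 30 UMIs or more. A gene without UMIs was set to 3 UMIs for any ratio, and such ratios are not printed. Striatal nuclei were scaled to 10000 UMIs, log transformed, and grouped without the 8 genes of the rule on a graph of shared neighbours with leidenalg 0.10.2 (5000 variable genes, 50 components, 15 neighbours, resolution 1.2). Doublets were called with Scrublet at an expected 8% and kept. Other tools were Python 3.11.15, numpy 2.4.6, scipy 1.17.1 and pandas 2.3.3. The steps were tested on simulated data.

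The members and the 31 gene lists were chosen with earlier results of these data known. Named genes were those of the lists, the 20 highest and 10 lowest by the smaller of both libraries' ratios without the rule genes, and between viruses the 10 highest and 10 lowest. Alternatives changed the rule, the minimum, the fold, the depth, the scaling, the compared nuclei, the resolution and the treatment of doublets. Results for a few single genes are not reported here. Positions come from the GRCm38 annotation given with the data.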

Additional observations from a re-analysis of the deposited data

Results flagged for a closer look

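Between the viruses, 4 of the genes furthest apart in members had an interval on the opposite side of 0 from that in all other striatal nuclei. This difference was not tested. Galntl6 had a log2 ratio of AAV-VEGF-C over AAV-CTRL of 2.30 in members and −0.19 in other nuclei. Sidt1 was at 2.10 in members, with 10 and 34 UMIs, and −0.14 in other nuclei. Gm32647 was at −2.43 in members and 0.10 in other nuclei. Ranbp3l was at 4.37 in members and −0.55 in other nuclei, but 32 of its 33 UMIs in AAV-VEGF-C members came from 1 nucleus.

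Pcp2, a gene of Purkinje neurons, the cells that granule neurons contact in the cerebellum, was read in all nuclei as data outside the members. At least 2 Pcp2 UMIs were found in 6 nuclei of striatum AAV-CTRL and 2 of striatum AAV-VEGF-C, and in 0 nuclei of each cortical library. At least 1 was found in 99 and 94 striatal and 35 and 38 cortical nuclei, and in 1 and 5 of the members.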

How the results depend on the processing

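No paired analysis was possible because each group is 1 library, and for the same reason no replicate was left out. Of the values that answer a comparison, 64 recomputed values stayed within their limits and 56 moved; of the values for single genes and smaller counts, 982 stayed, 217 moved and 5 changed sign. The cause was not tested.

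The number of members followed the rule. A minimum of 2 UMIs gave 68 in AAV-CTRL, a minimum of 5 gave 15 and 10, leaving out Fat2 gave 23 and 21, and a limit of 0 glial and vascular UMIs gave 21 in AAV-VEGF-C. Applied after thinning to 700 UMIs, the rule kept 8 and 1, with a log2 ratio of shares of −2.56. The whole cluster held 148 and 127.

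Against other nuclei, 102 higher and 31 lower genes became 208 and 94 at a minimum of 10 UMIs, and 30 and 4 at 100 UMIs with 5 granule neuron genes higher. They became 201 and 86 at 1.5-fold, 31 and 0 at 4-fold, 53 and 8 from members with at least 5 UMIs (7 granule neuron genes), and 253 and 158 over the cluster. Lower genes were 58 by per-nucleus shares and 18 for members inside the cluster. Against Slc17a6 neurons, 121 higher and 60 lower became 531 and 190 over the cluster. From at least 4 Slc17a6 UMIs 188 were higher, and 114 were lower by per-nucleus shares and 27 inside the cluster. The sum of 24 genes over Gad neurons was 2.50 and 2.07 for members inside and 2.37 and 2.13 over the cluster. Over cortical Slc17a7 neurons it was 2.00 and 1.51, and 1.87 and 1.58.

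Between viruses, 67 higher and 86 lower became 471 and 470 at 10 UMIs, 4 and 13 at 100 UMIs, 12 and 11 after thinning, and 32 and 51 from members with at least 5 UMIs. With no glial or vascular UMIs 33 were higher, and inside the cluster 35 were lower. The granule sum was −0.55 after thinning and −0.48 inside. Signs changed for Chn2 with no glial or vascular UMIs (0.026), for Cdh12 (0.73), Adarb2 (0.54) and Sox6 (2.10) over the cluster, and for Hcrt over other nuclei in AAV-CTRL members with at least 5 UMIs (−0.15). Median depth over the cluster was 1557 and 1898 UMIs, with 1139.5 and 1348 genes. Restriction to the cluster, and leaving out the deepest nucleus of each library, were chosen after seeing the data. Few nuclei at shallow depth limit every value here, and genes with under 30 UMIs were mostly not comparable.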

Other observations

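Immediate early genes, which neurons switch on within minutes of activity or stress, had more UMIs in the AAV-VEGF-C nuclei of the Gabra6 cluster. The 17 genes of this list summed to 81 and 173 UMIs there, with a log2 ratio of AAV-VEGF-C over AAV-CTRL of 1.02 (0.63 to 1.42). In members the sum was 32 and 59 UMIs, with 1.21 (0.57 to 1.88), and in other striatal nuclei the ratio was −0.11. Nr4a3, an orphan nuclear receptor gene, had 4 UMIs in 4 nuclei and 29 in 20, with 2.78 (1.28 to 4.75). Dusp1, a phosphatase that acts on MAP kinases, had 5 UMIs in 5 nuclei and 27 in 22, with 2.36 (0.96 to 4.09). Nr4a1 had 1 and 15 UMIs and Fos 2 and 13. Egr1, with 14 and 14 UMIs, and Junb, with 9 and 6, had intervals that included 0. The cluster's nuclei come from 1 pool of tissue per virus, and whether handling of the tissue differed between the pools was not tested.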
